A study of Rattus norvegicus with 458 samples.

Results

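The miR-181 family of the rat was followed through a small RNA sequencing atlas of 23 tissues. Its members were taken as every name of the deposited count table that is a mature strand of miR-181a, miR-181b, miR-181c or miR-181d, or that joins such strands because a read matched more than 1 of them, which gave 14 of 7534 names. Of these 14 names, 10 were single strands and 4 were joined names. A further 2 matching names that also held a hairpin precursor had 1 read between them and were left out.

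The animals were untreated Sprague Dawley rats, 12 to 13 weeks old, with 5 males and 5 females. Each tissue therefore serves as the comparison for the others, and there is no treated group. Tissues were taken from single rats, except that dorsal root ganglia were pooled into 1 male and 1 female pool. Each pool was sequenced as 5 technical libraries that were summed here. Per the paper, the ganglion RNA was provided by Takeda Pharmaceuticals. The labels of these libraries name none of the 10 rats and give no RNA integrity number. The brain was represented by brainstem, cerebellum, cerebrum and hippocampus, the kidney by cortex, medulla and the whole organ, skeletal muscle by biceps femoris and soleus, and the stomach by its glandular and non-glandular parts.

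The table covered 215 libraries. After 7 libraries were set aside, 208 libraries formed 200 samples with 376401 to 17725805 counted reads per library (median 4777568). Ovary, testis and uterus had 5 rats each, hippocampus had 7, duodenum had 6, the dorsal root ganglion had 2 pools and each of the other tissues had 10 rats. Levels are given as CPM, the counts scaled to a common library total of 1000000, so that a very abundant microRNA lowers the CPM of all others in the same tissue. All samples are bulk tissue, in which fewer cells of a type and less RNA per cell cannot be told apart. Reads were amplified and carried no molecular identifiers, so that counting intervals cover counting error only. The paper states that ligase bias affected quantities in this sequencing and may depend on the base composition of a microRNA. Read counts of different strands are therefore not taken as their true amounts.

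The 7 libraries set aside were labelled duodenum (rats 2, 4, 7 and 11) and hippocampus (rats 2, 6 and 7), and each correlated better with another tissue than with its own. With them kept, mean miR-181a-5p in the duodenum was 37289 ± 44911 CPM (SD, n = 10) in place of 10938 ± 766 (n = 6), and in the hippocampus 78643 ± 47485 (n = 10) in place of 107477 ± 12099 (n = 7). By the same measure some kept libraries, such as hippocampus of rat 10, lay nearer to another tissue by at most 0.0194 in median r. A gap over 0.05 was shown by 3 further libraries, adrenal of rat 8, ovary of rat 11 and uterus of rat 8. They were kept, and without them the miR-181a-5p means of these tissues were 9208, 16630 and 9246 CPM against 9425, 15055 and 9444 with them.

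MicroRNAs are short RNAs cut from both arms of a hairpin, and the strand from either arm can guide silencing of messenger RNAs that pair with its seed, the bases just after its 5′ end. The miR-181 genes lie in paired clusters, each with an a-type or c-type hairpin followed by a b-type or d-type hairpin. The 5p strands are the dominant products and share their seed, so that they are predicted to recognise largely the same target sites. The family is known as abundant in neurons and, in the immune system, miR-181a is known for tuning the sensitivity of the T cell receptor in the thymus.

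The 4 mature 5p strands are shown because nearly all family reads belong to them and because they differ by few bases. Sequences are from RefSeq (GRCr8, plus strand), with the seed, bases 2 to 8 counted from the 5′ end, in capitals.
miR-181a-5p: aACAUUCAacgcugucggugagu
miR-181b-5p: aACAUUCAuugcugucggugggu
miR-181c-5p: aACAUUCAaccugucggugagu
miR-181d-5p: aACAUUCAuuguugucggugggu
The 4 strands shared 1 seed. From miR-181a-5p to miR-181b-5p the changes were A9U, C10U and A21G, and from miR-181b-5p to miR-181d-5p the only change was C12U. MiR-181c-5p equals miR-181a-5p with the G at position 11 removed. In the RefSeq table the miR-181a-5p sequence stood at chr3:43025601-43025623 and again at chr13:52037081-52037103, miR-181b-5p at chr13:52037263-52037285, miR-181c-5p at chr19:40888314-40888335 and miR-181d-5p at chr19:40888484-40888506. The hairpin genes Mir181a-1 and Mir181b1 were 61 bases apart on chromosome 13, Mir181c and Mir181d 77 bases apart on chromosome 19, and Mir181a2 and Mir181b2 986 bases apart on chromosome 3.

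Since the 2 copies of miR-181a make the same 5p strand, its reads cannot be assigned to a gene, and the same holds for miR-181b-5p. The 3p strands can be assigned, and they are shown as the most frequent sequence under each name in the deposited table of read variants, with bases 2 to 8 in capitals.
miR-181a-1-3p: aCCATCGAccgttgattgtacc
miR-181a-2-3p: aCCACCAAccgttgactgtacc
miR-181b-1-3p: cTCACTGAacaatgaatgcat
miR-181b-2-3p: cTCACTGGtcaatgaatgcca
miR-181c-3p: aCCATCGAccgttgagtggacc
Between these sequences, miR-181a-1-3p differed from miR-181a-2-3p by T5C, G7A and T16C, of which the first and the second lie in the seed. MiR-181a-1-3p and miR-181c-3p differed by T16G and T19G and had the same seed. Both arms of a hairpin are seen in Mir181c (chr19:40888291-40888396), shown with its mature strands in capitals.
Mir181c: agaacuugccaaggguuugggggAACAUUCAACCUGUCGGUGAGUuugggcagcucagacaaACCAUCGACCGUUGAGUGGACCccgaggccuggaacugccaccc

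Over the 200 samples miR-181a-5p held 39202690 reads, 89.0% of the family. MiR-181b-5p followed with 2313548 reads (5.25%), miR-181c-5p with 1920746 (4.36%) and miR-181d-5p with 271877 (0.617%). The 3p strands were rarer, with 177574 reads for miR-181a-1-3p, 115279 for miR-181c-3p and 38027 for miR-181a-2-3p. The b-type 3p strands were close to the limit of detection, with 3564 reads for miR-181b-1-3p and 1324 for miR-181b-2-3p. The filter on low counts passed 11 of the 14 names. The 3 that did not pass were miR-181d-3p (159 reads), the joined name of miR-181a-1-3p and miR-181c-3p (152 reads) and the joined name of the b-type 3p strands (1 read).

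By CPM the brain held by far the most miR-181. With upper-quartile scaling, which is described with the neighbouring tissues, whole blood stood above all 4 brain regions for miR-181b-5p, miR-181c-5p and miR-181d-5p and above all but the cerebellum for miR-181a-5p. In CPM, miR-181a-5p ran in the cerebellum from 194205 to 273001 CPM (median 218016, n = 10), in the brainstem from 153969 to 224729 (median 192434, n = 10), in the cerebrum from 124863 to 172266 (median 140930, n = 10) and in the hippocampus from 88740 to 120710 (median 109456, n = 7). The 37 brain samples did not overlap with the 161 non-neural samples, which ran from 1676 to 24941 CPM with a median of 10192. The 4 single 5p names together made up 24.0% of all counted reads in the cerebellum, 20.8% in the brainstem, 15.9% in the cerebrum and 11.9% in the hippocampus, against 0.304% in the non-glandular stomach.

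Mean miR-181a-5p fell from 222947 ± 22973 CPM (SD) in the cerebellum to 2597 ± 788 in the non-glandular stomach, an 85.8-fold range. The dorsal root ganglion, the other neural tissue, ranked 5 of 23 with 33001 and 36606 CPM in its 2 pools, below every brain sample and above every non-neural sample. Next came the testis at 22366 ± 1461 (n = 5), the heart at 19678 ± 1833 and the ovary at 15055 ± 5164 (n = 5).

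A broad middle group of tissues followed in small steps of CPM. It ran from the kidney medulla at 14267 ± 2214 CPM through the pancreas (13473 ± 2395), kidney cortex (13292 ± 1361), whole kidney (13173 ± 2105), duodenum (10938 ± 766) and biceps femoris (10067 ± 666) to the uterus (9444 ± 1063), ileum (9441 ± 1204), soleus (9438 ± 1384), adrenal (9425 ± 1157), whole blood (8839 ± 2489) and jejunum (8273 ± 869). With counts scaled to the library total, none of its 11 neighbouring pairs passed an adjusted p of 0.05 in edgeR's quasi-likelihood test. These pairs were neighbours because their means were close on that scale, so that this does not show the tissues to be level. The ends of the group were not compared. Ovary and kidney medulla, just above, did not pass either (adjusted p = 0.713, same test). With upper-quartile scaling, described below, some pairs of the group passed, in either direction. The lowest levels were in the liver (6871 ± 1107), the glandular stomach (5287 ± 968) and the non-glandular stomach.

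**Figure D1:**
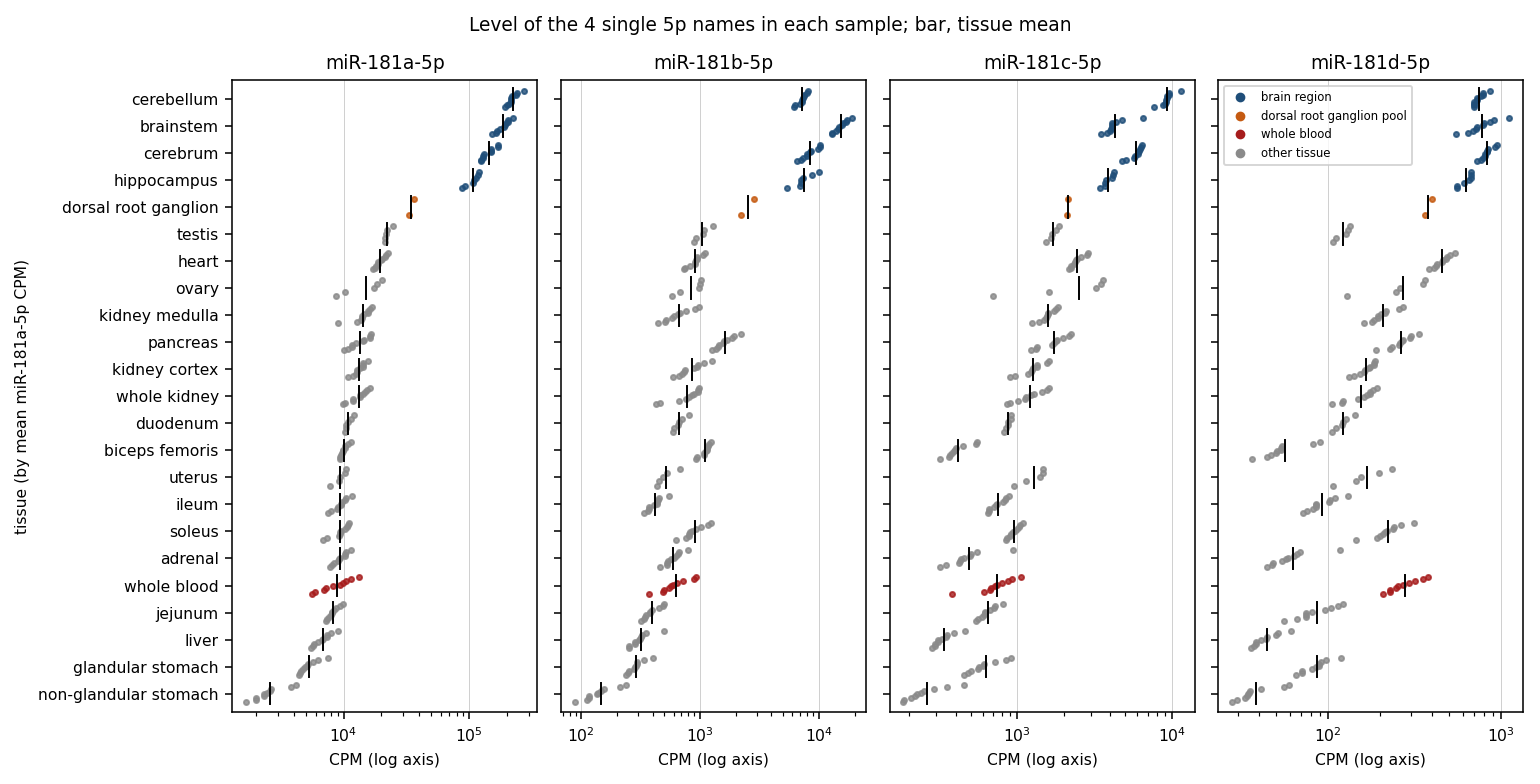
Level of the 4 single 5p names in CPM (horizontal log axes, 1 panel per name) in each of 23 tissues in the order of miR-181a-5p, with 1 point per sample and a bar at the tissue mean. For miR-181a-5p the 4 brain regions run from 88740 to 273001 and all 161 non-neural samples lie at or below 24941.

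By CPM the other 5p strands followed the same outline with their own order inside the brain. MiR-181b-5p was highest in the brainstem, from 12881 to 19111 CPM with a median of 15361, and the brainstem did not overlap with the cerebrum (6608 to 10343), hippocampus (5397 to 9960) or cerebellum (6201 to 8187). Outside the nervous system its highest tissue was the pancreas at 1634 ± 295 CPM, followed by biceps femoris at 1108 ± 101, and its lowest was the non-glandular stomach at 147 ± 46.5.

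MiR-181c-5p was highest in the cerebellum, from 7713 to 11426 CPM with a median of 9269, above every sample of the cerebrum, whose highest was 6391. The ovary ranked 5 at 2516 ± 1292 (n = 5) and the heart 6 at 2439 ± 245, and 2 of the 161 non-neural samples exceeded the lowest brain sample of 3423 CPM. At the low end were the biceps femoris (416 ± 75.9), the liver (336 ± 54.9) and the non-glandular stomach (261 ± 85.4).

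The CPM means of miR-181d-5p differed less across the brain than those of the other 5p strands, with 825 ± 66.7 CPM in the cerebrum, 779 ± 157 in the brainstem, 743 ± 54.2 in the cerebellum and 624 ± 53.5 in the hippocampus. Every hippocampus sample (552 to 671) lay below every sample of the cerebrum (721 to 948) and the cerebellum (694 to 858). The heart ranked 5 at 456 ± 48.0, the dorsal root ganglion 6 with pools at 361 and 399, and whole blood 7 at 277 ± 56.7. None of the non-neural samples reached the lowest brain sample of 551 CPM, and the highest of them, 544, lay just under it.

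The question of which neighbouring tissues in these orders differ beyond their spread depended on the scaling. With counts scaled to the library total, 8 of the 22 neighbouring pairs of miR-181a-5p passed an adjusted p of 0.05, as did 6 of 22 for miR-181b-5p, 6 of 22 for miR-181c-5p and 3 of 22 for miR-181d-5p. The share of all names that passed for these pairs is not given for this scaling, so that these counts are not read as a trait of the family. For miR-181a-5p cerebellum and brainstem did not pass (adjusted p = 0.0611), whereas brainstem and cerebrum, cerebrum and hippocampus, hippocampus and dorsal root ganglion, and dorsal root ganglion and testis did.

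With upper-quartile scaling, the scaling used for the tests below, 9, 9, 8 and 6 of the 22 pairs passed in the order of the CPM for miR-181a-5p, miR-181b-5p, miR-181c-5p and miR-181d-5p, and 4, 5, 6 and 5 passed in the opposite direction, where 32.3% of all names passed for the same tissue pairs in either direction. The upper-quartile factor differed widely between tissues. Its median was 0.146 in whole blood and 0.304 in the non-glandular stomach, and 3.74 in the testis and 3.85 in the brainstem. On that scale miR-181a-5p in whole blood moved from rank 19 of 23 to rank 2, behind the cerebellum, and in the testis from rank 6 to rank 23. The other 5p strands had their highest mean in whole blood on that scale, where miR-181b-5p moved from rank 16, miR-181c-5p from rank 17 and miR-181d-5p from rank 7 to rank 1. The upper-quartile scaled means were 4481 for miR-181b-5p in whole blood and 3966 in the brainstem, the highest brain region. For miR-181c-5p they were 5361 and 4184 in the cerebellum, and for miR-181d-5p 2013 and 334 in the cerebellum, with the heart between them at 575. That these strands were highest in the brain therefore holds by CPM and not with upper-quartile scaling. In the non-glandular stomach miR-143-3p and miR-145-5p, the smooth-muscle markers, together held 843868 CPM, and their part in its low miR-181 levels was not tested.

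Across the brain as a whole, the 5p strands, the 3p strands of the chromosome 13 hairpins and miR-181c-3p were higher than in the 18 non-neural tissues. The direction for the 3p strands of the chromosome 3 hairpins depended on the scaling, and miR-181d-3p did not pass the filter and was not tested. By CPM the mean of the 4 brain regions was 14.7-fold above the mean of the non-neural tissues for miR-181a-5p, 13.6-fold for miR-181b-5p, 5.30-fold for miR-181c-5p and 4.62-fold for miR-181d-5p. In edgeR's quasi-likelihood test with upper-quartile scaling, 9 of the 11 tested members were higher in the brain and 2 were lower at an adjusted p of 0.05, where 26% of the 1593 tested names were higher and 35.6% lower. The median change over all names was -0.98 on the log2 scale.

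The log2 change was 1.96 (SE 0.07, adjusted p = 2.35e-70) for miR-181a-5p and 1.88 (SE 0.07, adjusted p = 1.33e-66) for miR-181b-5p. It was smaller for miR-181c-5p, at 0.58 (SE 0.08, adjusted p = 1.5e-11), and for miR-181d-5p, at 0.50 (SE 0.08, adjusted p = 3.4e-09). These sizes depended on the scaling, and the 9 names called higher, which include miR-181a-1-3p, miR-181b-1-3p, miR-181c-3p and 2 joined 5p names, were called higher under all 4 scalings. MiR-181a-5p ranged from 1.96 with upper-quartile scaling through 2.67 (TMM) and 2.94 (DESeq2) to 3.97 (library total), and miR-181c-5p from 0.58 to 2.59.

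**Figure D2:**
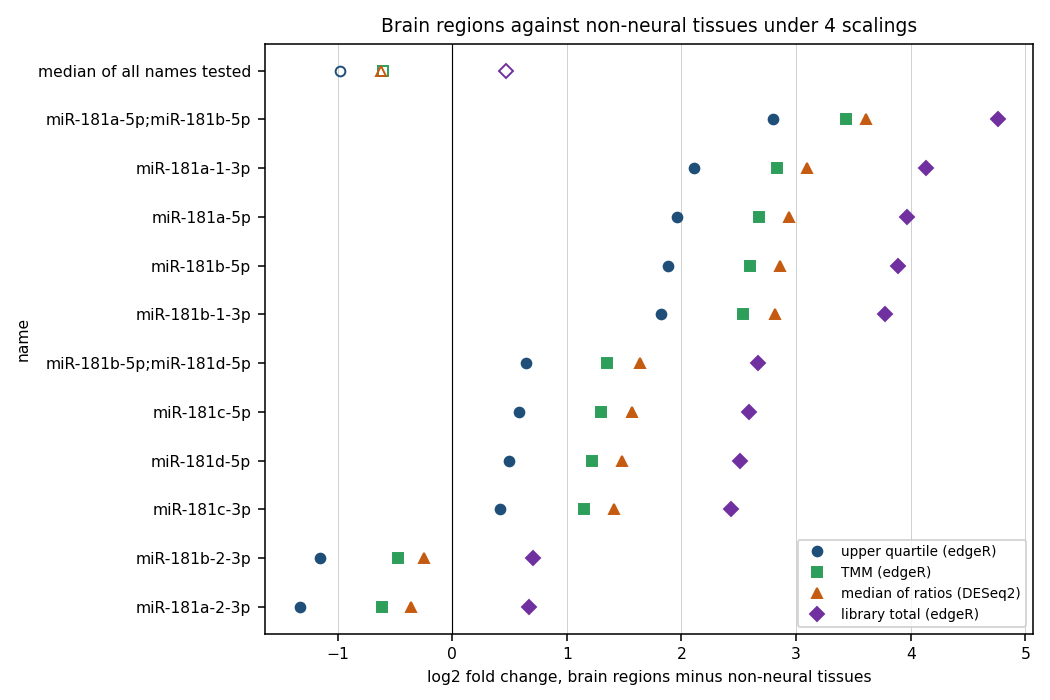
Log2 change of the 11 tested names between the 4 brain regions and the 18 non-neural tissues (horizontal axis) under 4 ways of scaling the counts, each with its own mark, and open marks at the median of all tested names. MiR-181a-2-3p and miR-181b-2-3p change sign between upper-quartile scaling (-1.33 and -1.16) and library-total scaling (0.67 and 0.70), and the other names stay above 0.

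The 3p strands separated the loci. In the brain samples miR-181a-1-3p, from the chromosome 13 copy, ran from 505 to 1058 CPM (median 777), and in the non-neural samples from 5.70 to 150 (median 43.2), without overlap. MiR-181a-2-3p, from the chromosome 3 copy, ran from 18.8 to 96.1 CPM in the brain (median 41.3) and from 0.996 to 178 elsewhere (median 25.5), and 102 of 161 non-neural samples lay above the lowest brain sample. The log2 change was 2.11 (SE 0.07, adjusted p = 1.57e-71) for miR-181a-1-3p and -1.33 (SE 0.09, adjusted p = 3.79e-32) for miR-181a-2-3p, the latter turning to 0.67 with library-total scaling. The b-type strands were parted in the same way, with 1.83 (SE 0.12) for miR-181b-1-3p and -1.16 (SE 0.26) for miR-181b-2-3p, which turned to 0.70 with library-total scaling.

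A ratio of 2 strands within a library does not depend on the scaling. The log2 ratio of miR-181a-1-3p to miR-181a-2-3p averaged 4.24 over the 3 brain regions held by every rat and 0.80 over 14 non-neural tissues held by every rat. The difference of 3.44 ± 0.20 (SD over 10 rats) had the same direction in all 10 rats, with an adjusted p of 0.0022 over 9 ratios in the exact sign-flip permutation test (two-sided), whose smallest unadjusted p for 10 rats is 0.00195.

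The locus ratio differed widely among tissues. Of the reads on these 2 names, those from miR-181a-1-3p made up 96.1% ± 0.502 in the cerebellum, 95.4% ± 0.654 in the cerebrum, 94.9% ± 0.432 in the hippocampus and 92.8% ± 0.910 in the brainstem. The lowest brain sample stood at 91.0% and the highest non-neural sample, of the non-glandular stomach, at 88.2%. The dorsal root ganglion pools held 73.8% and 78.6%, which placed them among non-neural tissues such as the glandular stomach (78.1% ± 7.42) and the liver (74.5% ± 3.45).

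In 3 tissues the chromosome 3 copy gave more reads than the chromosome 13 copy in every sample. These were the skeletal muscles, with 35.8% ± 4.13 from miR-181a-1-3p in biceps femoris and 33.7% ± 4.44 in soleus, and the pancreas, with 31.4% ± 3.27. The highest samples of these tissues were 42.7%, 41.3% and 39.3%. The heart, the other striated muscle, lay on the other side of an equal split with 51.2% to 61.7% (median 58.6%). The pancreas also had the lowest RNA integrity numbers of the series, from 4.9 to 6.8, and the part of RNA quality in its ratio was not tested. In CPM, miR-181a-2-3p reached 120 ± 19.1 in biceps femoris, 75.6 ± 17.8 in soleus and 73.2 in the pancreas (54.7 to 97.7), beside 75.8 in the brainstem (43.0 to 96.1), and in all 3 tissues lay above every sample of the cerebellum, whose highest was 27.5. High CPM of miR-181a-2-3p was not confined to these tissues, since its highest mean was in the testis, at 121, and the heart samples ran from 58.4 to 89.1.

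Chosen after these values were seen, each of the 17 tissues held by all rats was also set against the mean of the other 16. The ratio differed in 13 of 17 by the exact sign-flip permutation test at an adjusted p of 0.05. The pancreas was lower by 2.69 ± 0.19 on the log2 scale, soleus by 2.54 ± 0.32 and biceps femoris by 2.39 ± 0.29, each in 10 of 10 rats with an adjusted p of 0.00332, the smallest these tests gave. Kidney cortex, ileum, liver and whole blood did not pass.

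The linked b-type hairpins gave far fewer reads. Pooled over samples, miR-181b-1-3p held 91.6% of 559 reads in the cerebellum (exact 95% interval 89.0 to 93.8), 29.6% of 159 reads in soleus (22.6 to 37.3), 32.4% of 179 in biceps femoris (25.6 to 39.8) and 17.3% of 150 in the pancreas (11.6 to 24.4). In adrenal, heart, kidney medulla and ovary it held 46.4%, 45.3%, 42.2% and 41.2%, and in whole blood 40.0% of only 10 reads. The intervals of these tissues all held an equal split. MiR-181a-1-3p held the larger pooled share there, from 50.3% in the adrenal to 75.5% in whole blood. In the remaining tissues the a-type and b-type shares lay on the same side of an equal split. The brain and non-neural log2 ratios of miR-181b-1-3p to miR-181b-2-3p differed by 3.35 ± 0.70 in 10 of 10 rats (adjusted p = 0.0022, exact sign-flip permutation test). Over the 23 tissue means, log2 CPM of miR-181a-1-3p and miR-181b-1-3p correlated with r = 0.971 and of miR-181a-2-3p and miR-181b-2-3p with r = 0.739. These compare with r = 0.518 between miR-181a-1-3p and miR-181a-2-3p and r = 0.297 between miR-181b-1-3p and miR-181b-2-3p. The points share libraries and depth and are given as a description.

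**Figure D3:**
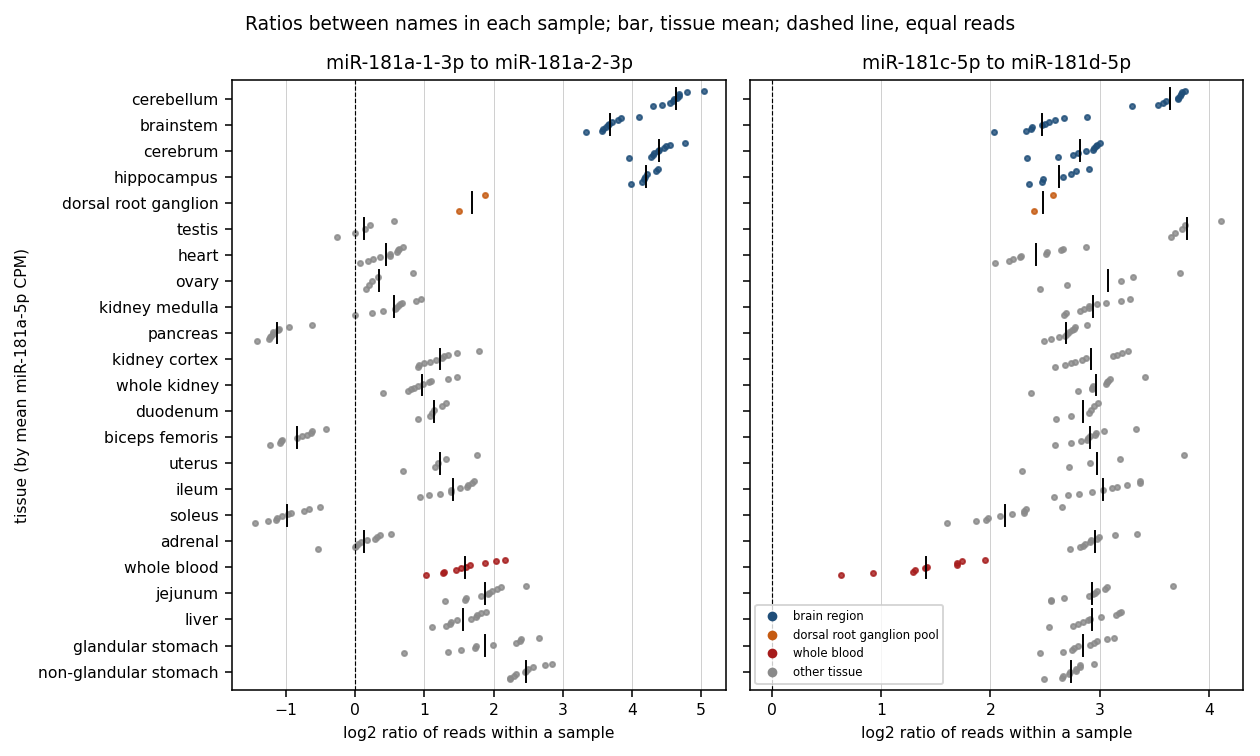
Log2 ratio of miR-181a-1-3p to miR-181a-2-3p (left panel) and of miR-181c-5p to miR-181d-5p (right panel) in each sample of 23 tissues, with a bar at the tissue mean and a dashed line at equal reads. The brain regions have the highest left-panel means, from 3.69 to 4.63, while pancreas, soleus and biceps femoris lie below 0.

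On chromosome 19, miR-181c-5p exceeded miR-181d-5p in every tissue, by a margin that varied. The log2 ratio was highest in the testis (3.80 ± 0.18, n = 5) and the cerebellum (3.65 ± 0.15), and lowest in soleus (2.13 ± 0.29) and whole blood (1.41 ± 0.40). The whole blood samples ran from 0.63 to 1.95 (median 1.41) and the cerebellum samples from 3.29 to 3.79 (median 3.72), which did not overlap. Put as a linear ratio, 12.5 reads of miR-181c-5p accompanied each read of miR-181d-5p in the cerebellum and 2.65 did in whole blood. Set against the other 16 tissues as above, cerebellum was higher by 0.95 ± 0.18, whole blood lower by 1.43 ± 0.42 and soleus lower by 0.66 ± 0.28, each in 10 of 10 rats (adjusted p = 0.0083, exact sign-flip permutation test). Of the 17 tissues, 9 passed. The brain regions went different ways, since against the other 16 tissues the brainstem was lower by 0.29 ± 0.24 in 9 of 10 rats (adjusted p = 0.0166, same test) and the cerebrum, 0.08 ± 0.20 higher, did not pass (adjusted p = 0.291, same test). The mean of these 3 regions exceeded that of the non-neural tissues by 0.28 ± 0.12 (adjusted p = 0.0022, exact sign-flip permutation test), although the brainstem mean of 2.48 lay below the non-neural mean of 2.70.

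The make-up of the 5p pool shifted accordingly. MiR-181a-5p held 92.8% of the single 5p names in the cerebellum, its highest share, and 78.8% in the pancreas, its lowest. MiR-181b-5p held the largest shares in the pancreas (9.58% ± 0.553) and biceps femoris (9.52% ± 0.741) and the smallest in the cerebellum (3.03% ± 0.309). MiR-181c-5p ranged from 2.10% ± 0.494 in the brainstem to 12.6% ± 3.36 in the ovary (n = 5), where the library of rat 11 stood lowest at 6.85%, and was 10.4% ± 1.12 in the heart. MiR-181d-5p was largest in whole blood (2.71% ± 0.396) and smallest in the cerebellum (0.311% ± 0.0293).

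**Figure D4:**
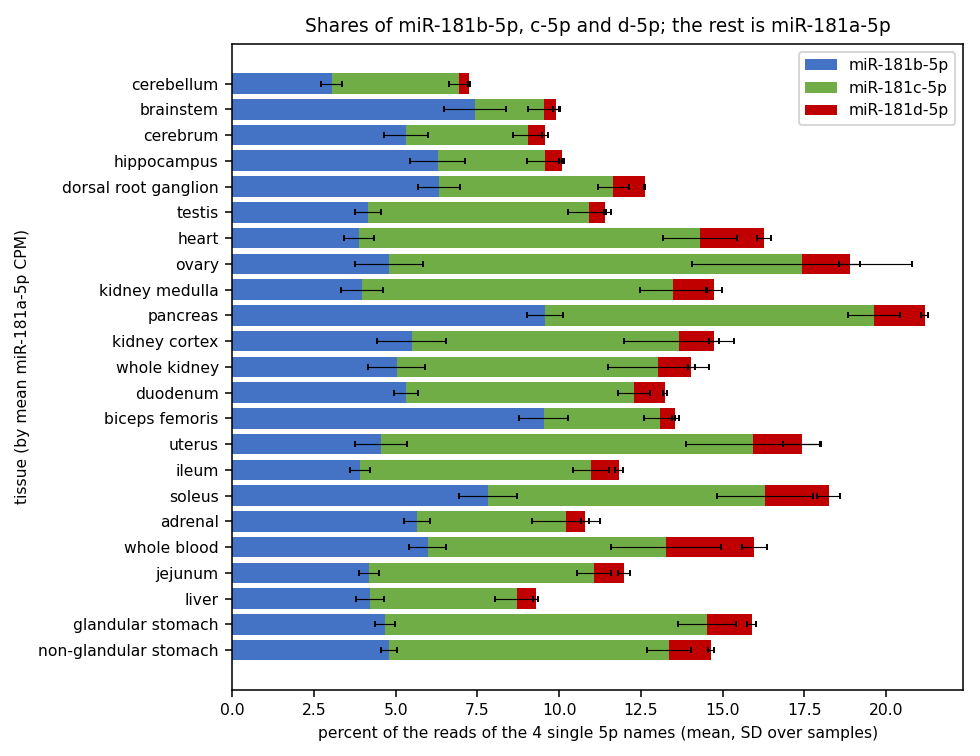
Share of the 4 single 5p names in their sum, in percent, for miR-181b-5p, miR-181c-5p and miR-181d-5p in each tissue (bars at the mean over samples, lines 1 SD, axis from 0), with the remainder being miR-181a-5p. MiR-181b-5p is largest in pancreas and biceps femoris at 9.58% and 9.52%, and miR-181c-5p in the ovary at 12.6%.

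The ratio of miR-181a-5p to miR-181c-5p was on average higher in the brain, at 4.88 on the log2 scale over the brain regions and 3.56 over the non-neural tissues, a difference of 1.32 ± 0.17 in 10 of 10 rats. The groups overlapped, and 20 of 161 non-neural samples lay above the lowest brain sample of 4.29. The brainstem was highest at 5.45 ± 0.29, whereas the cerebrum (4.61 ± 0.17) and cerebellum (4.58 ± 0.11) stood at the level of biceps femoris (4.61 ± 0.19), followed by the liver (4.35 ± 0.24) and adrenal (4.32 ± 0.32). The ratio of miR-181a-5p to miR-181b-5p differed by only 0.21 ± 0.07, and within the brain it was 4.94 ± 0.14 in the cerebellum and 3.61 ± 0.19 in the brainstem. Both brain differences had an adjusted p of 0.0022 in the exact sign-flip permutation test.

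The balance of the arms leaned further to 5p in the mean of the brain regions, with the cerebellum well above the others for miR-181a and miR-181c. For miR-181a-5p over its 3p names the log2 ratio was 7.79 in the brain and 7.17 elsewhere, a difference of 0.62 ± 0.07, and for miR-181c it was 4.28 and 4.03, a difference of 0.25 ± 0.09, each in 10 of 10 rats (adjusted p = 0.0022, exact sign-flip permutation test). For miR-181a the cerebellum stood at 8.57 ± 0.17, the brainstem at 7.49 ± 0.17 and the cerebrum at 7.31 ± 0.13, and whole blood was above all of them at 8.76 ± 0.37. For miR-181c only the cerebellum, at 5.23 ± 0.22, lay above the non-neural mean, and the brainstem (3.88 ± 0.20) and cerebrum (3.72 ± 0.06) lay below it. The b-type difference was 0.87 ± 0.39 in 9 of 10 rats (adjusted p = 0.0039, same test) and the d-type 1.58 ± 0.61 in 10 of 10, but miR-181d-3p was at 0 reads in many samples, so that its ratio rests mainly on the pseudocount of 0.5 reads.

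Inside the brain, with the cerebrum as the reference and upper-quartile scaling, the cerebellum had more miR-181a-5p, by 1.20 on the log2 scale (SE 0.18, adjusted p = 1.09e-08), and more miR-181c-5p, by 1.22 (SE 0.20, adjusted p = 1.09e-07), in edgeR's test. These were 2 of 11 members higher and 0 lower, where 13.4% of all names were higher and 13.1% lower, and both calls held under all 4 scalings. At an unadjusted p below 0.05 edgeR had 3 higher and 0 lower, while DESeq2 called 2 higher and 5 lower. For DESeq2 and for rat as a block, the share of all names is not given for the contrasts within the brain. MiR-181b-5p (0.35) and miR-181d-5p (0.39) did not pass without rat as a block, but the regions come from the same rats, and with rat as a block both were higher, at 0.43 (SE 0.15, adjusted p = 0.0206) and 0.49 (SE 0.17, adjusted p = 0.0148), which made 4 of 11 higher. In neither of these fits did the 3p strands miR-181a-1-3p (-0.06) and miR-181c-3p (-0.28) pass. With DESeq2 both were lower in the cerebellum, at -0.49 (adjusted p = 4.12e-06) and -0.72 (adjusted p = 2.87e-08). In edgeR's test with library totals they were at -0.61 (adjusted p = 9.42e-06) and -0.83 (adjusted p = 8.4e-08). With TMM only miR-181c-3p passed in edgeR's test, at -0.60 (adjusted p = 0.00348), and miR-181a-1-3p did not (adjusted p = 0.0616).

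The brainstem differed from the cerebrum in another set. MiR-181b-5p was higher by 0.63 (SE 0.18, adjusted p = 0.00928) and miR-181a-2-3p by 0.64 (SE 0.20, adjusted p = 0.0145), while miR-181c-3p was lower, at -0.85 (SE 0.20, adjusted p = 0.000998), and miR-181c-5p was lower, at -0.68 (SE 0.20, adjusted p = 0.009). With rat as a block these 4 calls were kept and miR-181b-2-3p was also higher, at 1.20 (SE 0.43, adjusted p = 0.0325). All but the miR-181c-5p call held under the 4 scalings, and the background was 6.15% of names higher and 7.85% lower. None of the 11 members passed between hippocampus and cerebrum without the block, where 0.816% of names were higher and 2.89% lower, and miR-181c-5p came nearest at -0.70 (SE 0.22, adjusted p = 0.0501) and passed with rat as a block, at -0.66 (SE 0.18, adjusted p = 0.0178). At an unadjusted p below 0.05 edgeR had 5 lower and 0 higher, and DESeq2 called 3 lower and 0 higher.

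The dorsal root ganglion, which holds sensory neurons outside the brain, had less of 6 of the 11 members than the brain regions, and none was higher, against a background of 16.9% of names higher and 11.3% lower. The log2 change was -1.79 (SE 0.35, adjusted p = 7.61e-06) for miR-181a-5p, -1.46 (SE 0.34, adjusted p = 0.000246) for miR-181b-5p and -0.96 (SE 0.35, adjusted p = 0.0288) for miR-181c-5p. For the 3p strands it was -1.95 (SE 0.37) for miR-181a-1-3p, -2.41 (SE 0.64) for miR-181b-1-3p and -0.99 (SE 0.36) for miR-181c-3p. MiR-181a-2-3p (0.58) and miR-181d-5p (-0.55) did not pass. The 6 calls held under all 4 scalings but rest on 2 pools, and leaving out either pool gave 3 calls. For the 0 higher calls, edgeR and DESeq2 also had 0 higher at an unadjusted p below 0.05, and DESeq2 called 9 lower, for which the share of all names is not given. The ganglion RNA was supplied separately from that of the brain, so that source and tissue cannot be told apart in these contrasts.

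Whole blood, a mix of red cells, platelets and leukocytes, gave a result that turned on the scaling for most members. Upper-quartile scaling called 7 of 11 members higher and 1 lower than in the solid tissues, with a background of 35.7% of names higher and 16.8% lower. Only miR-181d-5p was higher under all 4 scalings, with log2 changes of 3.81 (upper quartile), 2.32 (TMM), 3.09 (DESeq2) and 1.16 (library total), and only miR-181b-1-3p, which had 4 reads in all whole blood samples together, was lower under all 4. MiR-181a-5p went from 2.41 to -0.21 with library-total scaling, and miR-181c-5p from 2.33 to -0.31. In CPM, whole blood held 207 to 376 of miR-181d-5p (median 262), overlapping with the pancreas (188 to 336) and below the heart (384 to 544).

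Over all tissues, each set in turn against the mean of the other 22, the 11 members gave 75 calls higher and 62 lower among 253 tests with upper-quartile scaling, where 24.4% of all tests were higher and 13% lower. MiR-181c-3p and miR-181a-2-3p were higher in 9 tissues each, and miR-181a-5p in 6.

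With upper-quartile scaling no member passed edgeR's test between females and males. In the 19 tissues of both sexes, 0 of 209 pairs of member and tissue passed an adjusted p of 0.05 in edgeR, against 1.02% of all names and tissues. At an unadjusted p below 0.05 edgeR had 9, or 4.31%, against 8.97% of all, and DESeq2 called 3 after adjustment, miR-181a-5p and miR-181b-5p in whole blood and the joined name of miR-181b-5p and miR-181d-5p in the ileum. In edgeR's test with library totals, miR-181b-5p was lower in females in the kidney cortex, at -0.58 (adjusted p = 0.0386), and medulla, at -0.51 (adjusted p = 0.0432). The other calls with library totals were higher in females. They were miR-181a-5p, miR-181b-5p and miR-181a-1-3p in the non-glandular stomach and miR-181b-5p in whole blood. With upper-quartile scaling the widest difference among the 76 pairs of a single 5p name was miR-181b-5p in the whole kidney. The females had 426, 462, 661, 766 and 893 CPM and the males 811, 851, 969, 973 and 986, so that the groups overlapped, and the log2 change was -0.60 (SE 0.21, edgeR adjusted p = 0.255).

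The deposited read variants showed which forms of each strand were present. Given here are the 2 most frequent forms of miR-181a-5p and miR-181c-5p and the 4 most frequent of miR-181b-5p and miR-181d-5p, the rarest of which ends in an A that is not encoded there, with the bases that vary at the 3′ end in capitals.
miR-181a-5p: aacattcaacgctgtcggtgAGT
miR-181a-5p, shorter: aacattcaacgctgtcggtgAG
miR-181b-5p: aacattcattgctgtcggtgGG
miR-181b-5p, longer: aacattcattgctgtcggtgGGT
miR-181b-5p, longest: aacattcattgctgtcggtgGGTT
miR-181b-5p, ending in A: aacattcattgctgtcggtgGA
miR-181c-5p: aacattcaacctgtcggtgaGT
miR-181c-5p, longer: aacattcaacctgtcggtgaGTT
miR-181d-5p: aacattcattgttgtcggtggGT
miR-181d-5p, shorter: aacattcattgttgtcggtggG
miR-181d-5p, longer: aacattcattgttgtcggtggGTT
miR-181d-5p, ending in A: aacattcattgttgtcggtggA
The 23-base form of miR-181a-5p held 45.5% of its reads and the 22-base form 36.8%. For miR-181c-5p the 22-base form held 49.7% and the 23-base form 24.4%. MiR-181b-5p was spread more widely, with 33.2% in its 22-base form, 22.3% with 23 bases, 9.38% with 24 and 7.59% in the form ending in A. MiR-181d-5p had 31.2% in its 23-base form, 24.1% with 22 bases, 18.8% with 24 and 6.13% in the form ending in A.

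One sequencing lane stood apart in these variants. All 14 runs of lane 8 of flow cell C2BUMACXX carried an extra A before the 5′ end in 47.2% to 58.3% of miR-181a-5p reads, against at most 0.00679% in any of the other 444 runs. An extra 5′ base shifts the seed by 1 position, so that 5′ ends are given without this lane. Without it, reads of miR-181a-5p that start at another base made up 0.0536% in the brain regions and 0.0654% in the non-neural tissues, a difference of -0.0118 ± 0.00832 percentage points (adjusted p = 0.00879, exact sign-flip permutation test, 9 of 10 rats). In lane 4 of flow cell D2C4RACXX, 13 runs carried the change C10G in 8.48% to 9.33% of miR-181a-5p reads, against at most 0.280% in the 445 others.

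The share of reads that end in an A not encoded at that place differed between the mean of the brain regions and that of the non-neural tissues. This measure was chosen after the values were seen. For miR-181b-5p it was 17.4% over the brain regions and 11.1% over the non-neural tissues, a difference of 6.32 ± 1.59 percentage points (SD over 10 rats). For miR-181d-5p it was 14.6% and 12.1%, a difference of 2.48 ± 1.06. For miR-181a-5p it was 2.32% and 1.69%, and for miR-181c-5p 1.92% and 1.47%. These 2 strands encode an A near their 3′ end, so that an A added at that place cannot be seen. Their forms ending at that A (4.55% and 2.21% of reads) were not counted, whereas the 21-base form of miR-181b-5p ending in A (3.87%) was. The height of the share is therefore not comparable between strands. All 4 differences had the same direction in 10 of 10 rats (adjusted p = 0.00195, exact sign-flip permutation test). Without the runs of lane 8 the differences were 6.53 ± 0.985 for miR-181b-5p and 2.43 ± 0.856 for miR-181d-5p, again in 10 of 10 rats. The cerebellum was highest for both strands, with 20.3% ± 0.930 for miR-181b-5p and 20.3% ± 1.01 for miR-181d-5p, and for miR-181b-5p whole blood (7.94% ± 0.698) and testis (7.33% ± 2.83, n = 5) were lowest. For miR-181d-5p only the cerebellum stood well above the non-neural mean of 12.1%. The brainstem (11.1% ± 1.95) lay below that mean, the cerebrum (12.2% ± 2.39) lay near it, and both lay below the pancreas (18.3% ± 3.81).

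**Figure D5:**
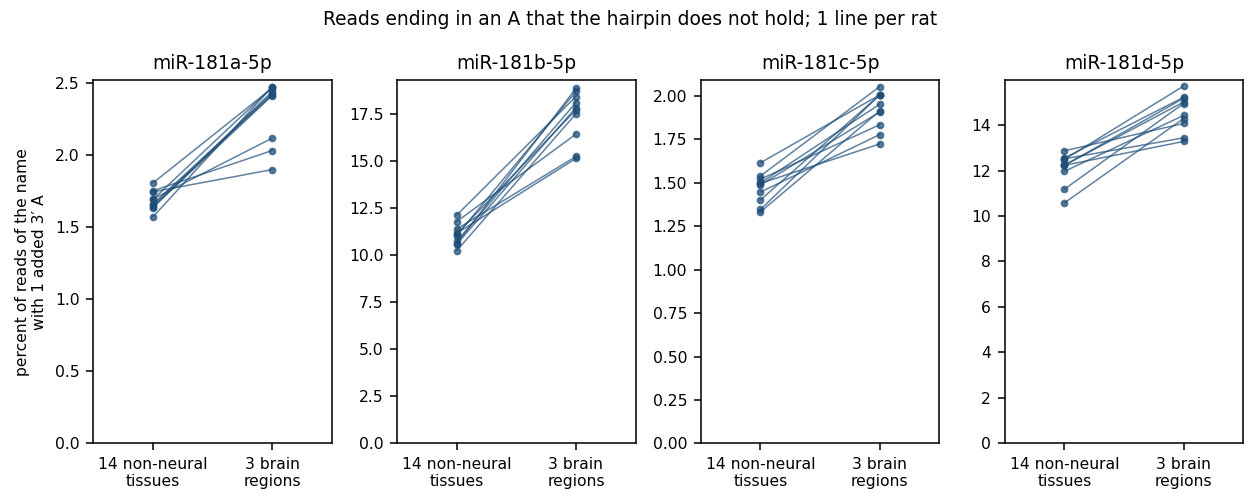
Share of reads with an added A at the 3′ end (vertical axes, percent of a name's reads, from 0) for the 4 single 5p names, with 1 line per rat from its mean over 14 non-neural tissues to its mean over 3 brain regions. All 10 lines rise in each panel, most for miR-181b-5p, from a mean of 11.1% to 17.4%.

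Relative to the end of its own most frequent form, the 3′ ends of miR-181b-5p and miR-181d-5p moved in opposite ways. This reference end lies at 22 bases for miR-181b-5p and at 23 bases for miR-181d-5p. The shorter reads of miR-181b-5p include a form ending in an added A (3.87% of its reads), so that this share overlaps with the added A above. Reads of miR-181b-5p ending before the reference end made up 14.2% in the brain and 9.90% elsewhere, a difference of 4.33 ± 0.92 points in 10 of 10 rats. Reads of miR-181d-5p ending after it made up 25.0% and 20.7%, a difference of 4.32 ± 1.01 in 10 of 10 rats. Both had an adjusted p of 0.00781 over 12 shares in the exact sign-flip permutation test.

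The names whose pattern over the 23 tissue means of log2 CPM was most like that of each 5p strand were chosen by Pearson's r among 1582 other names. For miR-181a-5p they were miR-9a-3p (r = 0.945), miR-9a-5p (0.933) and miR-219a-2-3p (0.932), and for miR-181b-5p a predicted name joined to the mir-331 precursor (0.916), miR-219a-2-3p (0.914) and a second predicted name (0.912). For miR-181c-5p they were miR-342-3p (0.867), miR-9a-5p (0.829) and the joined name of miR-29b-3p and miR-29c-3p (0.823), and for miR-181d-5p miR-185-5p (0.873), miR-185-3p (0.828) and a predicted name (0.803). Among the family, miR-181a-5p and miR-181b-5p correlated with r = 0.966 and miR-181c-5p and miR-181d-5p with r = 0.938. All these values are descriptions over tissues that share libraries. Of a list of brain-abundant microRNAs such as miR-124-3p, all 10 tested names were higher in the brain regions than in the non-neural tissues under each of the 4 scalings. Of a list of leukocyte microRNAs such as miR-142-3p, 5 of 6 were lower in the brain regions under each of the 4. The other, miR-150-5p, did not pass with upper-quartile scaling and was higher under the other 3. In whole blood all 6 were higher than in solid tissues with upper-quartile scaling, but 2 were higher and 3 lower with library totals. The summed CPM of the 4 leukocyte markers ranked whole blood 17 of 23 (mean 435), behind the brainstem (2096, rank 2) and the cerebrum (1552, rank 3). The part of leukocytes in the miR-181 levels was not tested.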

How the data were processed

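Small RNA of 23 rat tissues had been sequenced in 458 runs of 215 libraries. Per the study's methods and the submitters' processing notes, the authors trimmed adaptors with cutadapt (version 1.4.1), combined identical reads and assigned them with miRDeep2 to hairpins of rat, then of other species, and to predicted hairpins. The deposited tables hold raw read counts per microRNA name and per read sequence for each run, with no normalization, and a read that fits several names keeps a joined name. Short variants of close family members are therefore the reads most open to misassignment. The numbers that name rats and the tissue labels gave the groups.

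The members and lists were chosen with earlier results of these data known. Of the runs, 14 that repeated a lane were not used. Counts of the 444 others were added up within a library, 7 libraries were left out as described, and those of the dorsal root ganglion were added up within each of its 2 pools. CPM is the count over the library's total.

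Counts were tested with edgeR 4.0.16 in R 4.3.3 (quasi-likelihood F test, upper-quartile scaling as in 1 of the study's methods, its filter on low counts, Benjamini-Hochberg adjustment over all names), in 1 fit of 200 samples and 1593 names over tissues and in 1 fit of 1230 names over 19 tissues by sex. Ratios and shares were averaged per rat over the tissues held by all rats and tested with the exact sign-flip permutation test over 10 rats, with 0.5 reads added to each count of a ratio. The names described were the members and the 3 tested names most correlated with each single 5p name. Exact binomial intervals were used at 95%. DESeq2 1.42.0, TMM, library totals, no filter, rat as a block, each flow cell group, other sets of runs and libraries, and each rat left out served as alternatives. Tests of each tissue's ratios, the added A, the runs without lane 8 and the neighbouring tissues by library total were chosen after the data were seen. The fits were tested on simulated counts. Sequences are from RefSeq and the deposited table, and Python 3.11.15 with numpy 2.4.6, scipy 1.17.1, pandas 2.3.3 and matplotlib 3.10.9 was used.

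Tissues of 1 rat share an animal, and deviations from the tissue means of different tissues correlated with a median r of 0.0116 within a rat and -0.00646 between rats, over 1866 and 16806 pairs. These medians cover all pairs of tissues and do not give the correlation between brain regions, where calls changed with rat as a block.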

Additional observations from a re-analysis of the deposited data

Results flagged for a closer look

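Among 110 groups of 4 to 10 samples, 9 held a sample far from the others by Dixon's test, where chance gives about 1 in 20. In the adrenal, rat 8 was highest for miR-181c-5p (936 CPM, the others 316 to 551) and for miR-181d-5p (117 CPM, the others 44.5 to 68.6), and this library also lay nearer to another tissue in the check of labels. In the ovary, rat 11, another library of that kind, had the highest log2 ratio of miR-181a-1-3p to miR-181a-2-3p at 0.83 (the others 0.16 to 0.33). In the adrenal the lowest such ratio was that of rat 10 at -0.54 (the others -0.01 to 0.52).

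The other 5 samples were miR-181a-5p in the kidney medulla of rat 11 (9079 CPM, the others 12725 to 16829), miR-181a-5p in the testis of rat 4 (24941 CPM, the others 21441 to 22061), miR-181b-5p in the liver of rat 9 (501 CPM, the others 254 to 350), miR-181c-5p in the brainstem of rat 9 (6481 CPM, the others 3503 to 4748) and miR-181c-5p in the cerebellum of rat 11 (11426 CPM, the others 7713 to 9661).

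Outside the mature names, 7 precursor names of the family held 37 reads over 200 samples. The name mir-181d-pre had 22 reads, of which 7 were in the cerebellum, the joined name of a predicted precursor on chromosome 19 and mir-181d-pre had 5, and that of a predicted precursor on chromosome 13 and mir-181b-1-pre had 4. Their part was not tested.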

How the results depend on the processing

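In edgeR, 9 members were higher in the brain than in non-neural tissues and 8 to 11 were so under every alternative. The 2 lower ones became 1 with TMM, DESeq2 or flow cell D1GBMACXX alone and 0 with library totals, where miR-181a-2-3p (0.67) and miR-181b-2-3p (0.70) reversed, and leaving out 1 rat gave 1 to 2, the 1 being without rat 6. Of all 1593 names, 414 were higher in the brain with upper-quartile scaling, 517 with TMM, 499 with DESeq2 and 766 with library totals. Those lower were 567, 464, 589 and 157. Except for whole blood, the shares of all names under the alternatives are not given for the contrasts that follow. Calls of each tissue against the others that were lower went from 62 to 97 with library totals and 98 with DESeq2. Of the brain regions against the cerebrum, 4 higher calls became 2 without the filter on low counts and 2 to 5 without 1 rat or pool (2 without either pool). The 2 lower calls became 6 (TMM), 9 (library totals), 10 (DESeq2), 4 with the 7 libraries kept, and 0 without the filter or in flow cell D1GBMACXX alone, and ran from 2 to 3 without 1 rat or pool. In the dorsal root ganglion, TMM gave 1 higher call in place of 0, and the 6 lower calls became 2 without the filter, 3 in flow cell D1GBMACXX alone and 3 to 7 without 1 rat or pool. In whole blood, 7 higher calls became 1 with library totals, and the 1 lower call became 4 (TMM), 7 (library totals), 3 (DESeq2) and 0 without the filter or in either set of flow cells. There miR-181a-1-3p reversed to -0.46 (TMM) and -1.59 (library totals), miR-181a-2-3p to -1.42 (TMM), -2.47 (library totals) and -0.62 (DESeq2), and with library totals miR-181a-5p to -0.21, miR-181c-3p to -1.06 and miR-181c-5p to -0.31. Between the sexes the 0 calls became 6 (library totals), 3 (DESeq2), 1 in the other flow cells alone and 1 with the 7 libraries kept, and 0 to 1 without 1 rat. The cause was not tested.

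With rat as a replicate block, the regions against the cerebrum gave 7 higher calls in place of 4, and no other count moved by over 1.5 times. The ratios are paired by rat, and without that block all 9 kept their side of the threshold. All 9 ratios did so under every alternative.

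Of the 12 read-variant shares, the other-5′-end differences of miR-181a-5p, miR-181b-5p and miR-181c-5p reversed to -0.0107, -0.222 and -0.0962 in flow cell D1GBMACXX alone and to -0.0118, -0.176 and -0.0512 without the runs of lane 8. Shorter 3′ ends of miR-181d-5p (-1.59, adjusted p = 0.0516, exact sign-flip permutation test, flow cell D1GBMACXX alone) and longer 3′ ends of miR-181a-5p (-0.138, 7 libraries kept) lost the threshold. Shorter 3′ ends of miR-181a-5p ran from -1.16 to -0.598 without 1 rat and passed the threshold without rat 11. Without 1 rat, the other-5′-end differences ran from -1.36 to 1.47 for miR-181a-5p, -1.47 to 1.15 for miR-181b-5p and -1.13 to 1.52 for miR-181d-5p. The b-type and d-type 3p strands are limited by depth, and a sex difference of 1 on the log2 scale is often not detectable with 5 rats a sex. Contrasts with the dorsal root ganglion could not be blocked.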

Other observations

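Reads that begin with the same 7 bases as the 5p strands were rare under names outside the family. The most were 242 reads under miR-543-3p over all 458 runs, followed by 15 under a predicted name on chromosome 1 that shares the miR-181a-5p seed.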
